A study of Mus musculus with 22 samples.

Results

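Complex I, or NADH:ubiquinone oxidoreductase, is the largest enzyme of the mitochondrial respiratory chain, and its nuclear genes carry the Nduf prefix. The genes examined were those with a symbol starting in Nduf and at least 1 probe set naming that gene alone, each represented by its brightest probe set over all arrays. They were 42 of the 22180 genes on the arrays. By the usual assignment, 6 encode core subunits, 26 encode supernumerary subunits and 8 are the assembly factors Ndufaf1 to Ndufaf8. The other two, Ndufa4 and Ndufa4l2, carry the prefix but belong to or act at cytochrome c oxidase, so the name complex I does not cover them and they were kept out of the subunit counts. Nduf genes whose probe sets name other genes as well, such as Ndufb2, Ndufb4 and Ndufs6, are not among the 42.

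The tissue was the inguinal fat pad, white fat under the skin where adipocytes of the heat-producing beige kind can appear in the cold, and the series addresses whether the receptor PPARα is needed for that response. All mice were males aged 3 to 4 months, either PPARα-/- throughout the body, backcrossed to C57BL/6J for more than 10 generations, or wild type, and all first spent 5 weeks at 28 °C, close to thermoneutrality for mice. The 22 arrays, 1 per mouse, covered 5 null and 5 wild-type mice that then spent 1 week at 21 °C and 10 days at 5 °C, and 6 null and 6 wild-type mice that remained at 28 °C. The labels give 10 mice housed per group, and the sources used here do not say how the arrayed mice were picked. Each probe set has 1 value per array on the log2 scale, and the precision is limited by the number of arrays. The lower quartile of an array's values was 2.94 to 3.05, the median 4.63 to 4.77 and the maximum 13.1 to 13.3. The constitutive null allele removes the receptor from every tissue, so effects that start outside fat cannot be told apart from effects within it. The single Ppara probe set averaged 6.30 ± 0.56 at 5 °C in null mice and 6.59 ± 0.34 in wild-type mice, and 4.88 ± 0.43 at 28 °C in null mice and 4.72 ± 0.23 in wild-type mice (SD, n = 5 and 6). Its arrays overlapped between genotypes, so it is no check of the labels.

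Complex I takes electrons from NADH at its matrix arm, passes them along iron-sulphur clusters to ubiquinone, and pumps protons through its membrane arm. Core subunits carry out this chemistry and are shared with bacteria, supernumerary subunits surround and stabilise them, and assembly factors help build modules of the enzyme and are then released. The nuclear genome encodes most subunits, while the ND subunits that pump protons are encoded by mitochondrial DNA. In brown and beige adipocytes the chain burns fuel at a high rate, because the uncoupling protein Ucp1 lets protons back into the matrix as heat.

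The promoter sequences below belong to the genes around which the results turn. They are Ndufaf4, with the largest cold effect of the 42 genes, Ndufs8, Ndufs7 and Ndufs5. Ndufs8 and Ndufs7 had the largest and the smallest average cold effect among the 6 core subunits. Ndufs5 had the smallest of all subunits on its own dim probe set, while a brighter probe set shared with a pseudogene rose. Each window runs from 250 bases before to 50 bases after the annotated start in RefSeq (GRCm38.p6), given 5′ to 3′ on the gene's own strand (chr4:24897833-24898132, plus strand for Ndufaf4, chr19:3912725-3913024, minus strand for Ndufs8, chr10:80249199-80249498, plus strand for Ndufs7 and chr4:123718137-123718436, minus strand for Ndufs5). Capitals mark the matches described below, to the core letters bound by the factors NRF1 in Ndufaf4, ETS in Ndufs8, YY1 in Ndufs7 and the estrogen-related receptors (ERR) in Ndufs5.
Ndufaf4: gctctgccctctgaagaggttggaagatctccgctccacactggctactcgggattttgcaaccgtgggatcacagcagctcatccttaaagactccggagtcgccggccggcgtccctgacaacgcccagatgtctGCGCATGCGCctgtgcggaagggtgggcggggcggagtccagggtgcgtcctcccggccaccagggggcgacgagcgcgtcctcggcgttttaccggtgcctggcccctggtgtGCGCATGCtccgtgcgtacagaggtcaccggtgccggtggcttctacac
Ndufs8: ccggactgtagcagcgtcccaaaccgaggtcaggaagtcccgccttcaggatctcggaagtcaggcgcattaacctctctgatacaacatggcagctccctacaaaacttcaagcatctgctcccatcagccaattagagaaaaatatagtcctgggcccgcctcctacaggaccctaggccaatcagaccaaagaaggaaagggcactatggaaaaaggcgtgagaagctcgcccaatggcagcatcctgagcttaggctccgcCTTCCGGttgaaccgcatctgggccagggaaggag
Ndufs7: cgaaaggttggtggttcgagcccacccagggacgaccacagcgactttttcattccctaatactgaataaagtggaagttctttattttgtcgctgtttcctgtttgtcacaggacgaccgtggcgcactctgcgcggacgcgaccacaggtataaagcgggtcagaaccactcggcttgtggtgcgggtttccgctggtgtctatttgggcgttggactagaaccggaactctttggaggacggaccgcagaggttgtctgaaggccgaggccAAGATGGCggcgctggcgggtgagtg
Ndufs5: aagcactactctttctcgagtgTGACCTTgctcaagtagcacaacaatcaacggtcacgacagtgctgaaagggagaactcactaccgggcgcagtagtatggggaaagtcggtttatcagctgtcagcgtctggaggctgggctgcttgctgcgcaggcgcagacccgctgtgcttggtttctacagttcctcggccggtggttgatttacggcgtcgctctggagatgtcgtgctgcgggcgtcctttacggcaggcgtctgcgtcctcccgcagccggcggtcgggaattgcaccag

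Windows existed for 37 of the 42 genes, 39 windows in all. On either strand, the NRF1 core GCGCATGC was found in 5 of them (12.8%), against 2.71% of all 32851 mouse promoter windows and 3.51% of the 21262 windows of protein-coding genes. The YY1 core AAGATGGC was found in 7 (17.9%), against 2.75% of all windows and 3.05% of protein-coding ones, and the ETS core CCGGAAG in 6 (15.4%), against 8.86% and 11.6%. The ERR core AAGGTCA was found in 1 window (2.56%), that of Ndufs5, against 4.72% and 4.08%, and the longer ERR element TCAAGGTCA, which contains that core, in 0, against 0.423% and 0.334%. The letters CAAAGGTCA, taken from the second part of the element bound by PPARs and also containing the ERR core, were found in 0 windows, against 0.478% and 0.447%. The 7 YY1 matches, in Ndufa3, Ndufa9, Ndufaf8, Ndufb8, Ndufc1, Ndufs4 and Ndufs7, all lay after the start, from base 11 to base 46 counting the start as base 1, and all on the gene's own strand. Ndufaf4 held the NRF1 core at bases −113 to −106, overlapped by its reverse complement at −111 to −104, and again at bases 2 to 9. These are matches of letters in a short window and do not show binding.

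Cold raised nearly the whole set in both genotypes. By limma, with Benjamini-Hochberg adjustment over all 22180 genes, 36 of the 42 genes passed at an adjusted p under 0.05 and were higher at 5 °C in null mice, where 6.88% of all genes were called higher, and 37 of 42 in wild-type mice, where 8.35% were. In null mice 1 gene was called lower (background 6.33%), and in wild-type mice 0 were (background 8.3%). Of the 42, 35 were called higher in both. The median log2 change, 5 °C minus 28 °C, was 0.70 in null mice and 0.66 in wild-type mice, beside medians of −0.003 and 0.009 over all genes. Every array at 5 °C lay above every array at 28 °C for 36 genes in null mice (5.05% of all genes) and for 34 in wild-type mice (6.27%). In bulk tissue, fewer cells of a type and less RNA per cell cannot be told apart, and the same holds for gains. Ucp1 rose by 6.90 ± 0.25 in null mice and 7.05 ± 0.25 in wild-type mice (SE).

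**Figure D1:**
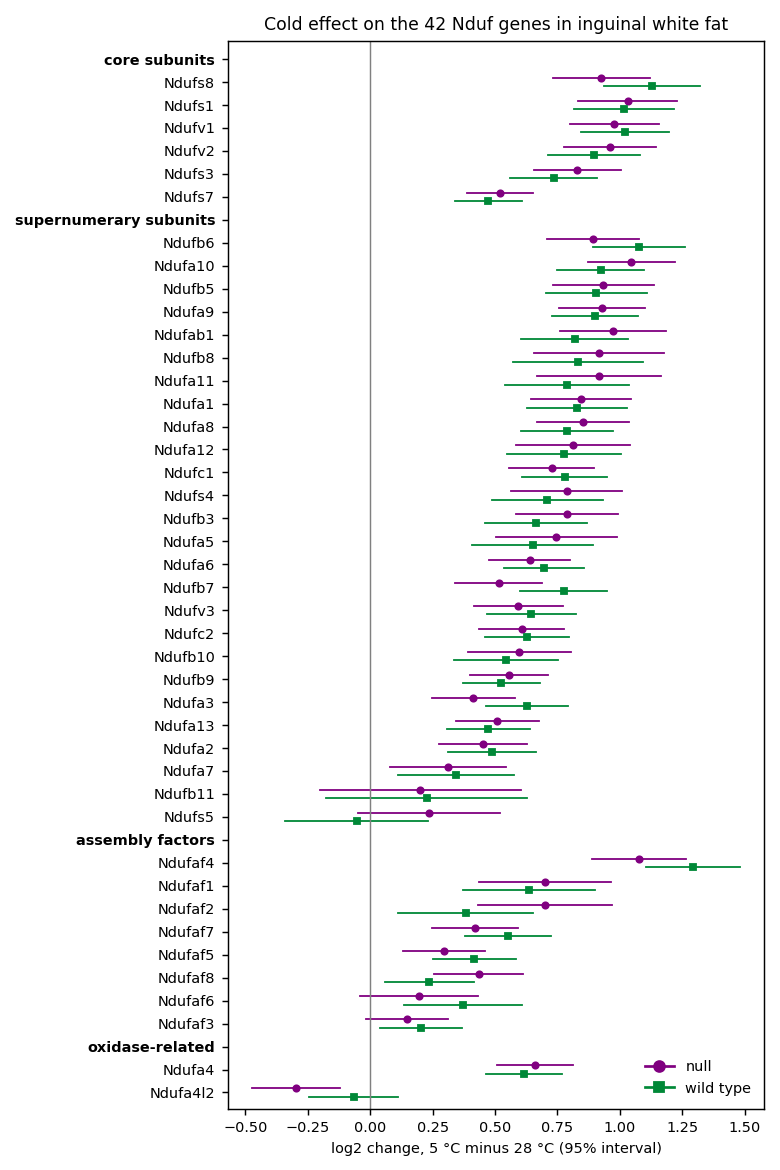
Log2 change between 5 °C and 28 °C (horizontal axis) for each of the 42 genes, grouped by role and ordered by average effect; purple circles are null mice, green squares wild-type mice, and bars 95% intervals from the fit over 22 arrays. The 21 subunits brighter than every assembly factor lie between 0.41 and 1.05 in null mice and between 0.47 and 1.13 in wild-type mice. Ndufaf4 is highest at 1.08 in null and 1.29 in wild-type mice. Ndufa4l2 lies at −0.30 in null and −0.07 in wild-type mice. In wild-type mice its interval, −0.24 to 0.11, includes 0, and Ndufs5 also lies just below 0, at −0.05.

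The 32 subunits had a median log2 change of 0.79 in null mice and 0.75 in wild-type mice. In null mice 29 were called higher and in wild-type mice 30, and in each genotype the 5 °C and 28 °C arrays did not overlap for 29. All 6 measured core subunits rose in both genotypes, with medians of 0.94 in null and 0.96 in wild-type mice. The 26 supernumerary subunits had medians of 0.74 in null and 0.70 in wild-type mice, with 23 and 24 called higher. Averaged over the 32 subunits, a mouse's log2 value was 8.56 ± 0.11 in null mice at 5 °C, against 7.84 ± 0.12 in null mice at 28 °C. The wild-type means were 8.60 ± 0.08 at 5 °C, against 7.90 ± 0.10 at 28 °C (SD, n = 5 at 5 °C and 6 at 28 °C). The lowest 5 °C mean of any mouse, 8.44, lay above the highest 28 °C mean, 8.02.

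Among the core subunits, Ndufs8 passes electrons through its pair of iron-sulphur clusters on their way to ubiquinone and rose most on average. Its average change, 1.027, was almost that of Ndufs1, 1.024, and in null mice Ndufs1, Ndufv1 and Ndufv2 rose more than Ndufs8. Ndufs8 read 10.06, 9.75, 9.74, 9.80 and 9.90 in null mice at 5 °C, against 8.75 to 9.13 (median 8.90) in null mice at 28 °C. Ndufs8 read 10.18, 9.82, 9.90, 9.89 and 10.15 in wild-type mice at 5 °C, against 8.75 to 9.11 (median 8.82) in wild-type mice at 28 °C. The groups did not overlap, and the change was 0.93 ± 0.09 in null mice (adjusted p = 3.44e-07) and 1.13 ± 0.09 in wild-type mice (adjusted p = 2.13e-08). Ndufs1, the largest subunit of the NADH-oxidising tip and a carrier of several iron-sulphur clusters, averaged 9.31 ± 0.14 in null and 9.34 ± 0.10 in wild-type mice at 5 °C and 8.28 ± 0.23 and 8.33 ± 0.10 at 28 °C. Its change was 1.03 ± 0.10 in null mice (adjusted p = 1.3e-07) and 1.02 ± 0.10 in wild-type mice (adjusted p = 1.15e-07). The arrays of the 2 temperatures did not overlap for Ndufs1.

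Ndufv1 binds NADH and its flavin. It read 9.52, 9.28, 9.35, 9.38 and 9.38 in null mice at 5 °C, against 8.19 to 8.56 (median 8.45) in null mice at 28 °C. It read 9.71, 9.45, 9.38, 9.32 and 9.46 in wild-type mice at 5 °C, against 8.24 to 8.60 (median 8.46) in wild-type mice at 28 °C. Its change was 0.98 ± 0.09 in null mice (adjusted p = 5.34e-08) and 1.02 ± 0.09 in wild-type mice (adjusted p = 2.55e-08). Ndufv2 is its partner in the tip. It read 9.86, 9.55, 9.57, 9.61 and 9.62 in null mice at 5 °C, against 8.47 to 8.84 (median 8.68) in null mice at 28 °C. It read 9.80, 9.64, 9.56, 9.56 and 9.94 in wild-type mice at 5 °C, against 8.60 to 8.96 (median 8.81) in wild-type mice at 28 °C. Its change was 0.96 ± 0.09 in null mice (adjusted p = 1.13e-07) and 0.90 ± 0.09 in wild-type mice (adjusted p = 2.13e-07). Ndufs3 belongs to the ubiquinone-binding arm. It read 6.92, 6.79, 6.64, 6.55 and 6.84 in null mice at 5 °C, against 5.76 to 5.97 (median 5.96) in null mice at 28 °C. It read 6.97, 6.58, 6.74, 6.66 and 6.92 in wild-type mice at 5 °C, against 5.87 to 6.17 (median 6.04) in wild-type mice at 28 °C. Its change was 0.83 ± 0.08 in null mice (adjusted p = 3.97e-07) and 0.73 ± 0.08 in wild-type mice (adjusted p = 1.66e-06). For each of these 3 genes every array at 5 °C lay above every array at 28 °C of its genotype.

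Ndufs7, which holds the last iron-sulphur cluster before ubiquinone, had the smallest change of the core subunits. Ndufs7 read 10.52, 10.46, 10.25, 10.41 and 10.33 in null mice at 5 °C, against 9.73 to 9.97 (median 9.89) in null mice at 28 °C. Ndufs7 read 10.45, 10.36, 10.42, 10.33 and 10.36 in wild-type mice at 5 °C, against 9.80 to 10.01 (median 9.94) in wild-type mice at 28 °C. The arrays did not overlap in either genotype. The change was 0.52 ± 0.06 in null mice (adjusted p = 5.3e-06) and 0.47 ± 0.06 in wild-type mice (adjusted p = 1.4e-05), and its standard error was the smallest of the 42 genes. The 95% interval of its change, 0.39 to 0.65 in null mice and 0.34 to 0.61 in wild-type mice, did not reach the intervals of the other 5 core subunits in null mice, the lowest of which was that of Ndufs3 at 0.66 to 1.00. In wild-type mice it reached that of Ndufs3, 0.56 to 0.91.

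The supernumerary subunits with the largest average changes were Ndufb6, of the far end of the membrane arm, and Ndufa10, a subunit related to nucleoside kinases. Ndufa10 read 10.90, 10.64, 10.53, 10.76 and 10.74 in null mice at 5 °C, against 9.46 to 9.80 (median 9.70) in null mice at 28 °C. Ndufa10 read 10.94, 10.62, 10.57, 10.63 and 10.71 in wild-type mice at 5 °C, against 9.61 to 9.92 (median 9.75) in wild-type mice at 28 °C. Arrays of the 2 temperatures stayed apart, and the change was 1.05 ± 0.08 in null mice (adjusted p = 2.8e-08) and 0.92 ± 0.08 in wild-type mice (adjusted p = 8.32e-08). Ndufb6 read 8.27, 7.97, 7.90, 8.01 and 7.99 in null mice at 5 °C, against 6.99 to 7.39 (median 7.09) in null mice at 28 °C. Ndufb6 read 8.15, 8.10, 8.08, 7.98 and 8.31 in wild-type mice at 5 °C, against 6.81 to 7.24 (median 7.05) in wild-type mice at 28 °C. The change of Ndufb6 was 0.89 ± 0.09 in null mice (adjusted p = 3.1e-07) and 1.08 ± 0.09 in wild-type mice (adjusted p = 2.13e-08), again with no overlap. Ndufab1, the mitochondrial acyl carrier protein that also serves lipoic acid synthesis, changed by 0.97 ± 0.10 in null mice (adjusted p = 7.35e-07) and 0.82 ± 0.10 in wild-type mice (adjusted p = 5.73e-06). Ndufs4, an accessory subunit needed for a stable NADH-oxidising tip, changed by 0.79 ± 0.11 in null mice (adjusted p = 1.91e-05) and 0.71 ± 0.11 in wild-type mice (adjusted p = 5.43e-05). At the lower end of those called in both genotypes were Ndufa2 and Ndufa13. Ndufa13 is a membrane-anchored subunit. It read 9.14, 9.19, 8.93, 9.11 and 9.21 in null mice at 5 °C, against 8.46 to 8.76 (median 8.61) in null mice at 28 °C. It read 9.15, 9.08, 8.93, 9.04 and 9.30 in wild-type mice at 5 °C, against 8.49 to 8.83 (median 8.60) in wild-type mice at 28 °C. Its change was 0.51 ± 0.08 in null mice (adjusted p = 0.000106) and 0.47 ± 0.08 in wild-type mice (adjusted p = 0.000194). Ndufa2 belongs to the matrix arm. It read 8.88, 8.89, 8.76, 8.81 and 8.70 in null mice at 5 °C, against 8.12 to 8.61 (median 8.32) in null mice at 28 °C. It read 9.03, 8.94, 8.78, 8.75 and 8.85 in wild-type mice at 5 °C, against 8.31 to 8.57 (median 8.35) in wild-type mice at 28 °C. Its change was 0.45 ± 0.09 in null mice (adjusted p = 0.000758) and 0.49 ± 0.09 in wild-type mice (adjusted p = 0.000273). The arrays of the 2 temperatures did not overlap for either gene.

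By position in the enzyme, the medians of the 4 modules lay between 0.69 and 0.83 in null mice and between 0.71 and 0.78 in wild-type mice, and differences between modules were not tested. Ndufab1 was assigned to none of the 4 modules and is left out of these medians. The 9 subunits of the NADH-oxidising N module had a median log2 change of 0.79 in null and 0.71 in wild-type mice, with 8 and 9 called higher. The 5 of the ubiquinone-binding Q module had 0.83 in null and 0.73 in wild-type mice, with all 5 called higher in each. The 9 of the proximal membrane arm had 0.73 in null and 0.78 in wild-type mice, and the 8 of the distal membrane arm 0.69 and 0.72, with 8 proximal and 7 distal genes called higher in each genotype. Within each module the single genes spread more widely than the module medians, for example from 0.20 to 0.93 in the distal arm of null mice.

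Of the subunits, 3 fell short of the threshold in at least 1 genotype: Ndufs5, Ndufb11 and Ndufa7. Ndufs5, a subunit on the intermembrane side, gave 5.20, 5.17, 5.69, 5.27 and 5.33 in null mice at 5 °C, against 4.94 to 5.22 (median 5.12) in null mice at 28 °C. It gave 5.02, 5.57, 4.70, 5.28 and 4.64 in wild-type mice at 5 °C, against 4.91 to 5.42 (median 5.06) in wild-type mice at 28 °C. The arrays overlapped in both genotypes, and the change was 0.23 ± 0.14 in null mice (adjusted p = 0.322) and -0.05 ± 0.14 in wild-type mice (adjusted p = 0.845). A brighter probe set that names both Ndufs5 and the pseudogene Ndufs5-ps behaved otherwise. It averaged 7.71 ± 0.19 in null and 8.03 ± 0.13 in wild-type mice at 5 °C, and 7.21 ± 0.25 and 7.25 ± 0.08 at 28 °C, a change of 0.50 ± 0.11 in null mice (adjusted p = 0.0059) and 0.78 ± 0.11 in wild-type mice (adjusted p = 6.05e-05). This and the other shared probe sets were tested by limma over all 41345 probe sets, of which 3.96% were called higher in null and 5.11% in wild-type mice. Signals of the gene and of the pseudogene cannot be told apart on that probe set, and the flat result for Ndufs5 holds for its own dim probe set only.

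Ndufb11, an X-linked subunit of the membrane arm, gave 5.74, 5.51, 4.69, 5.36 and 5.61 in null mice at 5 °C, against 4.84 to 5.60 (median 5.19) in null mice at 28 °C, and 5.10, 5.56, 4.83, 5.49 and 5.55 in wild-type mice at 5 °C, against 4.59 to 5.56 (median 5.08) in wild-type mice at 28 °C. Its change was 0.20 ± 0.19 in null mice (adjusted p = 0.602) and 0.23 ± 0.19 in wild-type mice (adjusted p = 0.498), with the widest error of the 42 genes, so that intervals of -0.20 to 0.60 in null and -0.18 to 0.63 in wild-type mice include no change and end below the subunit medians of 0.79 and 0.75. Ndufa7, of the matrix arm, gave 7.09, 6.55, 6.58, 6.72 and 6.98 in null mice at 5 °C, against 6.30 to 6.59 (median 6.53) in null mice at 28 °C, and 6.95, 6.79, 6.92, 6.79 and 6.85 in wild-type mice at 5 °C, against 6.27 to 6.87 (median 6.48) in wild-type mice at 28 °C. Its change was 0.31 ± 0.11 in null mice (adjusted p = 0.0738) and 0.34 ± 0.11 in wild-type mice (adjusted p = 0.0381), and the call in wild-type mice ended without any of 8 arrays in turn, the adjusted p then reaching 0.0931 at most. The difference between its 2 cold effects was -0.03 (95% interval -0.36 to 0.30, adjusted p = 1).

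Subunits without a probe set of their own could be read only together with other genes. In the same fit over all probe sets, the set naming Ndufb2 and Adck2 changed by 0.48 ± 0.09 in null and 0.44 ± 0.09 in wild-type mice. The set shared by Ndufb4, Ndufb4b and Ndufb4c changed by 0.69 ± 0.09 and 0.51 ± 0.09. The brighter of the 2 sets shared by Ndufs6 and its copy Ndufs6b changed by 0.87 ± 0.10 and 0.95 ± 0.10, the dimmer by 0.61 ± 0.10 and 0.78 ± 0.10. All 4 of these sets were called higher in both genotypes. A set naming Ndufs1 together with Ino80dos was not called, at −0.08 ± 0.13 in null mice (adjusted p = 0.819) and −0.24 ± 0.13 in wild-type mice (adjusted p = 0.287). Among the 3 genes with a second, dimmer probe set, that of Ndufa8 changed by 0.98 ± 0.11 in null and 0.96 ± 0.11 in wild-type mice, that of Ndufa12 by 0.78 ± 0.12 and 0.96 ± 0.12, and that of Ndufa11 by 0.61 ± 0.19 and 0.39 ± 0.19. The second set of Ndufa11 was not called in wild-type mice (adjusted p = 0.219), where the gene's brightest set was.

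The 8 assembly factors had a lower median change than the subunits, and single genes among them differed widely. Their median log2 change was 0.43 in null and 0.40 in wild-type mice, 0.36 below the subunit median in null mice and 0.36 below it in wild-type mice, and 6 of 8 were called higher in each genotype. The arrays of the 2 temperatures did not overlap for 6 of 8 in null mice and 4 of 8 in wild-type mice. Averaged over the 8 genes, a mouse's log2 value was 6.41 ± 0.09 in null mice at 5 °C, against 5.92 ± 0.09 in null mice at 28 °C, and in wild-type mice 6.38 ± 0.06 at 5 °C, against 5.87 ± 0.11 at 28 °C (SD, n = 5 and 6). The subunit mean minus the assembly factor mean within a mouse was 2.15 ± 0.05 in null mice at 5 °C, against 1.93 ± 0.07 at 28 °C, and 2.22 ± 0.07 in wild-type mice at 5 °C, against 2.02 ± 0.04 at 28 °C. In each genotype, every mouse at 5 °C had a larger difference than every mouse at 28 °C. No test was made of this contrast, since the classes were compared with earlier results known.

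**Figure D2:**
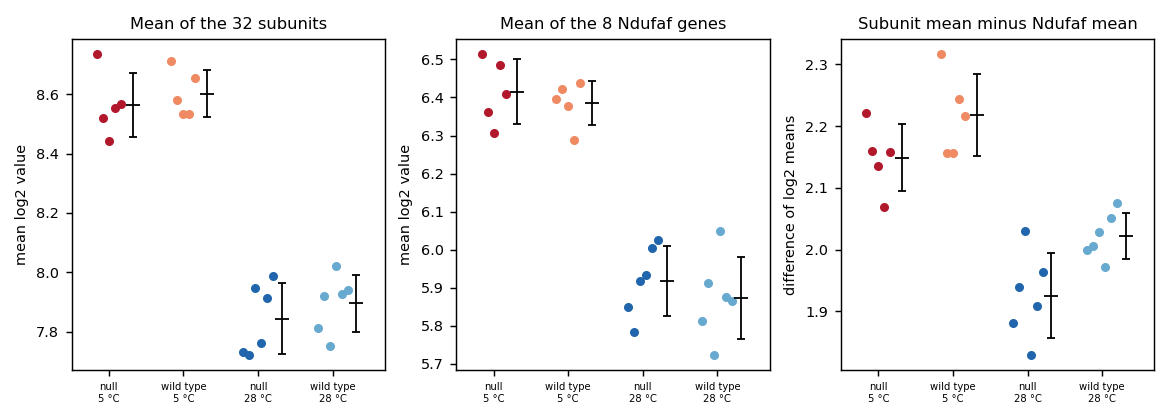
Mean log2 value of the 32 subunits, of the 8 Ndufaf genes, and their difference, with 1 point per mouse and the group mean ± SD beside it (n = 5 at 5 °C, 6 at 28 °C). Both means are higher in all mice at 5 °C, and the difference runs from 2.07 to 2.22 in null mice at 5 °C, against 1.83 to 2.03 in null mice at 28 °C, and from 2.16 to 2.32 in wild-type mice at 5 °C, against 1.97 to 2.08 in wild-type mice at 28 °C.

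Signal strength differs between the classes: the assembly factors' probe sets averaged 4.33 to 7.47 over all arrays and the subunits' 5.14 to 11.3. The 11 subunits within the assembly factors' range had median changes of 0.73 in null and 0.73 in wild-type mice, and the 21 brighter ones 0.81 and 0.78. Against these 11 subunits the assembly factor median was lower by 0.30 in null mice and by 0.33 in wild-type mice. Probe sets of low signal can understate a change, and the part of signal strength beyond this comparison was not tested. The other 11 measured complex I assembly factors, which lack the Nduf prefix, had median changes of 0.39 in null and 0.42 in wild-type mice, with 8 of 11 called higher in each. Foxred1, which acts at a mid to late stage, was highest at 0.97 in null and 1.02 in wild-type mice, Tmem186 had 0.39 and 0.39, and Dmac2 was lowest at 0.17 and 0.07.

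Ndufaf4, which with Ndufaf3 binds an early intermediate of the Q module in mammalian cells, had the largest change of the Ndufaf genes in both genotypes. Ndufaf4 read 7.06, 6.80, 6.90, 6.91 and 6.83 in null mice at 5 °C, against 5.70 to 5.94 (median 5.80) in null mice at 28 °C. Ndufaf4 read 7.15, 7.00, 7.03, 6.74 and 7.14 in wild-type mice at 5 °C, against 5.50 to 6.03 (median 5.71) in wild-type mice at 28 °C. The lowest array at 5 °C (6.74) lay above the highest at 28 °C (6.03). The change was 1.08 ± 0.09 in null mice (adjusted p = 3.77e-08) and 1.29 ± 0.09 in wild-type mice (adjusted p = 3.1e-09), or 2.11-fold in null and 2.45-fold in wild-type mice. Its partner Ndufaf3 was not called in either genotype. Ndufaf3 read 7.70, 7.57, 7.59, 7.37 and 7.55 in null mice at 5 °C, against 7.27 to 7.50 (median 7.42) in null mice at 28 °C. Ndufaf3 read 7.69, 7.49, 7.69, 7.44 and 7.55 in wild-type mice at 5 °C, against 7.19 to 7.54 (median 7.41) in wild-type mice at 28 °C. The arrays overlapped, and the change was 0.15 ± 0.08 in null mice (adjusted p = 0.274) and 0.20 ± 0.08 in wild-type mice (adjusted p = 0.0892). In each genotype the 95% interval of Ndufaf4, 0.89 to 1.27 in null and 1.10 to 1.48 in wild-type mice, lay above that of Ndufaf3, -0.02 to 0.31 and 0.04 to 0.37. In null mice it overlapped those of Ndufaf1, 0.43 to 0.97, and Ndufaf2, 0.43 to 0.97.

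Ndufaf1, which joins Acad9 and Ecsit in the complex that builds part of the membrane arm, was called in both genotypes. It read 7.31, 7.20, 7.02, 7.37 and 7.01 in null mice at 5 °C, against 6.03 to 6.85 (median 6.50) in null mice at 28 °C. It read 7.34, 7.07, 6.97, 7.16 and 7.39 in wild-type mice at 5 °C, against 6.24 to 6.83 (median 6.58) in wild-type mice at 28 °C. The groups did not overlap, and the change was 0.70 ± 0.13 in null mice (adjusted p = 0.000529) and 0.64 ± 0.13 in wild-type mice (adjusted p = 0.00107). Ecsit itself changed by 0.77 ± 0.10 in null and 0.79 ± 0.10 in wild-type mice, and Acad9 by 0.39 ± 0.08 and 0.52 ± 0.08. Ndufaf7 is a mitochondrial methyltransferase. It read 7.51, 7.24, 7.06, 7.33 and 7.32 in null mice at 5 °C, against 6.61 to 6.99 (median 6.92) in null mice at 28 °C. It read 7.37, 7.41, 7.35, 7.33 and 7.25 in wild-type mice at 5 °C, against 6.60 to 6.93 (median 6.81) in wild-type mice at 28 °C. The groups did not overlap, and the change was 0.42 ± 0.08 in null mice (adjusted p = 0.00122) and 0.55 ± 0.08 in wild-type mice (adjusted p = 5.3e-05). Ndufaf5 hydroxylates Ndufs7. It read 5.59, 5.55, 5.47, 5.72 and 5.76 in null mice at 5 °C, against 5.19 to 5.43 (median 5.33) in null mice at 28 °C. It read 5.56, 5.77, 5.64, 5.56 and 5.67 in wild-type mice at 5 °C, against 5.06 to 5.44 (median 5.16) in wild-type mice at 28 °C. The groups did not overlap, and the change was 0.30 ± 0.08 in null mice (adjusted p = 0.0151) and 0.42 ± 0.08 in wild-type mice (adjusted p = 0.000675). Without null 5 °C replicate 5 the call in null mice ended (adjusted p = 0.0514).

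Ndufaf8 stabilises Ndufaf5. Ndufaf8 read 6.64, 6.73, 6.62, 6.79 and 6.80 in null mice at 5 °C, against 5.98 to 6.48 (median 6.31) in null mice at 28 °C. Ndufaf8 read 6.54, 6.72, 6.66, 6.46 and 6.42 in wild-type mice at 5 °C, against 6.22 to 6.46 (median 6.29) in wild-type mice at 28 °C. The wild-type groups overlapped and the null groups did not. The change was 0.44 ± 0.09 in null mice (adjusted p = 0.00113) and 0.24 ± 0.09 in wild-type mice (adjusted p = 0.0647), and the call in null mice alone does not show a genotype difference, since the difference of the 2 effects was 0.20 (95% interval -0.05 to 0.45, adjusted p = 0.978).

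Ndufaf2 and Ndufaf6 were the dimmest of the 8. Ndufaf2, which holds the place of Ndufa12 late in assembly, gave 4.81, 4.86, 4.48, 4.80 and 4.87 in null mice at 5 °C, against 3.82 to 4.19 (median 4.11) in null mice at 28 °C. It gave 4.38, 4.76, 4.55, 4.10 and 4.69 in wild-type mice at 5 °C, against 3.61 to 4.48 (median 4.16) in wild-type mice at 28 °C. Its change was 0.70 ± 0.13 in null mice (adjusted p = 0.000624) and 0.38 ± 0.13 in wild-type mice (adjusted p = 0.0475). The wild-type groups overlapped, and that call ended when any of 18 of the 22 arrays was left out (adjusted p up to 0.134), whereas the null call held without any single array. Ndufaf6, needed for early steps around the mitochondrially encoded ND1, gave 5.50, 4.95, 5.31, 5.58 and 5.13 in null mice at 5 °C, against 4.98 to 5.26 (median 5.09) in null mice at 28 °C, and 5.13, 5.17, 5.13, 5.52 and 5.40 in wild-type mice at 5 °C, against 4.72 to 5.21 (median 4.87) in wild-type mice at 28 °C. The arrays overlapped in both genotypes, the change was 0.20 ± 0.11 in null mice (adjusted p = 0.317) and 0.37 ± 0.11 in wild-type mice (adjusted p = 0.026), and the wild-type call ended without any of 5 arrays (adjusted p up to 0.0826). The difference of the cold effects, null minus wild type, was 0.32 (95% interval -0.06 to 0.70, adjusted p = 0.978) for Ndufaf2 and -0.18 (95% interval -0.51 to 0.16, adjusted p = 0.999) for Ndufaf6.

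**Figure D3:**
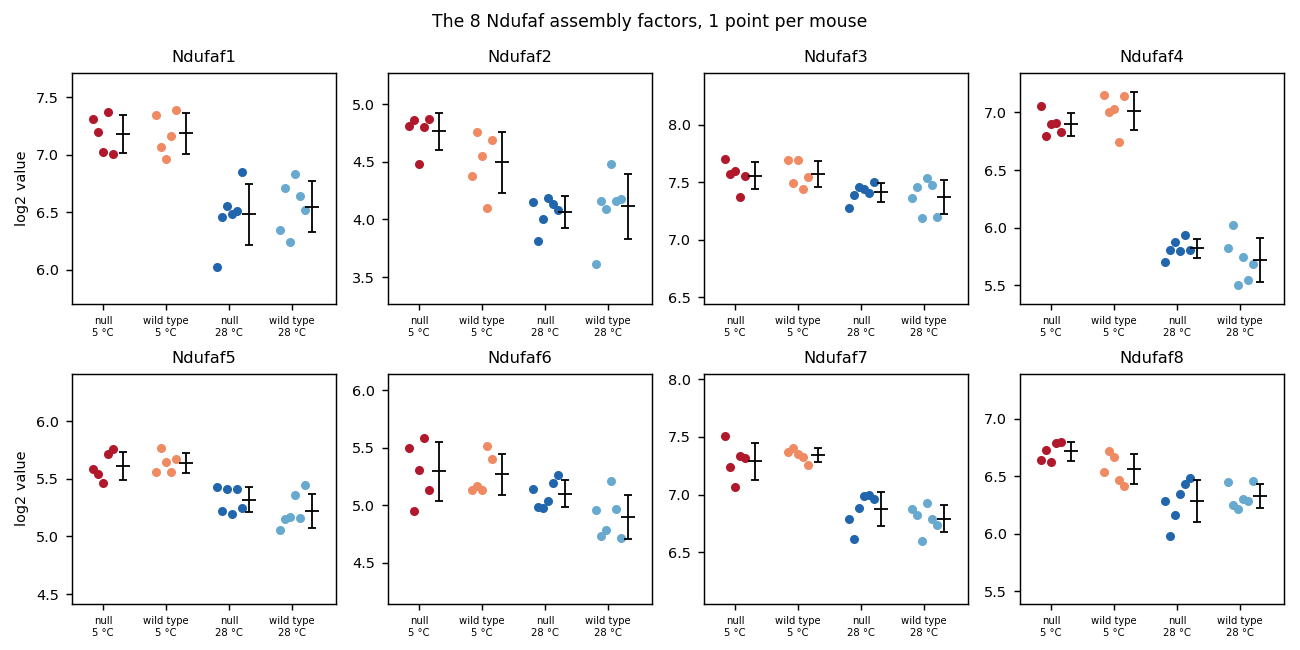
Log2 value of each Ndufaf gene with 1 point per mouse and the group mean ± SD beside it (n = 5 at 5 °C, 6 at 28 °C); every panel spans 2 log2 units, placed at its own level. Ndufaf4 shows the widest gap between 5 °C and 28 °C, with means of 6.90 and 7.01 in null and wild-type mice at 5 °C and 5.82 and 5.72 at 28 °C, and Ndufaf3 the smallest, with means of 7.56 and 7.57 at 5 °C and 7.41 and 7.37 at 28 °C.

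The 2 oxidase-related genes went different ways. Ndufa4, now counted as a subunit of cytochrome c oxidase, gave 10.92, 10.77, 10.75, 10.95 and 10.92 in null mice at 5 °C, against 10.11 to 10.48 (median 10.15) in null mice at 28 °C. In wild-type mice it gave 10.92, 10.91, 10.80, 10.81 and 11.03 at 5 °C, against 10.16 to 10.39 (median 10.27) at 28 °C. The groups did not overlap, and the change was 0.66 ± 0.07 in null mice (adjusted p = 1.48e-06) and 0.62 ± 0.07 in wild-type mice (adjusted p = 2.93e-06). Ndufa4l2, its paralog, which is induced by low oxygen, was the only one of the 42 genes called lower. Ndufa4l2 read 6.50, 6.33, 6.15, 6.27 and 6.44 in null mice at 5 °C, against 6.44 to 6.78 (median 6.68) in null mice at 28 °C. Ndufa4l2 read 6.58, 6.53, 6.64, 6.42 and 6.60 in wild-type mice at 5 °C, against 6.41 to 6.82 (median 6.61) in wild-type mice at 28 °C. The arrays overlapped in both genotypes. The change was -0.30 ± 0.09 in null mice (adjusted p = 0.0221) and -0.07 ± 0.09 in wild-type mice (adjusted p = 0.673). The call in null mice ended when any of 4 arrays was left out (null 5 °C replicates 3 and 4, null 28 °C replicates 2 and 6, adjusted p up to 0.07) and when array medians were subtracted or the groups were compared alone. The difference of the cold effects was -0.23 (95% interval -0.48 to 0.02, adjusted p = 0.965).

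The mitochondrially encoded subunits of complex I changed little on these probe sets, in a comparison with the nuclear ones that was not tested. The 7 genes ND1 to ND6 and ND4L had median log2 changes of 0.01 in null and 0.02 in wild-type mice, and 1 of the 7 was called, ND3, higher by 0.24 in null and 0.20 in wild-type mice. ND4 had changes of 0.01 and −0.01, and ND6, read from the other strand of mitochondrial DNA, −0.05 and −0.10. ND6 averaged 10.4 over all arrays and ND4, the brightest of the 7, 13.1, beside array maxima of 13.1 to 13.3, where signal can saturate. Whether saturation hides a change was not tested. Summarised per mouse, the 7 genes averaged 12.47 ± 0.03 in null mice at 5 °C, against 12.42 ± 0.06 at 28 °C, and 12.49 ± 0.05 in wild-type mice at 5 °C, against 12.47 ± 0.04 at 28 °C.

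The other complexes showed the same order of medians, subunits above assembly factors, in complexes II, III and IV. Median signal was also higher for subunits, at 9.21 against 6.16 in complex II, 8.33 against 6.75 in III and 9.27 against 6.88 in IV. No comparison matched for brightness was made for these complexes. For complex II the median log2 change was 0.80 in null and 0.80 in wild-type mice over 4 subunits, and 0.31 and 0.45 over 4 assembly factors. For complex III it was 1.02 and 1.04 over 8 subunits, with Cyc1 highest at 1.29 and 1.31, and 0.43 and 0.52 over 6 assembly factors, with Lyrm7 highest at 1.08 and 1.01. For complex IV it was 0.78 and 0.74 over 9 subunits, with Cox5a highest at 1.17 and 1.25, and 0.47 and 0.47 over 17 assembly factors, among which Taco1 changed by 0.87 and 1.04 and Cox16 by 0.02 and 0.01. For complex V, the ATP synthase, 15 subunits had medians of 0.54 in null and 0.49 in wild-type mice, while the 2 assembly factors lay at 1.03 and 1.11 (Atpaf2) and 0.31 and 0.26 (Atpaf1). Of the subunits, 4 of 4, 8 of 8, 8 of 9 and 12 of 15 were called higher in null mice for complexes II to V, and the same numbers in wild-type mice. Complex I subunits, at 0.79 and 0.75, thus lay between those of complex III and complex V, and these differences between complexes were not tested.

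**Figure D4:**
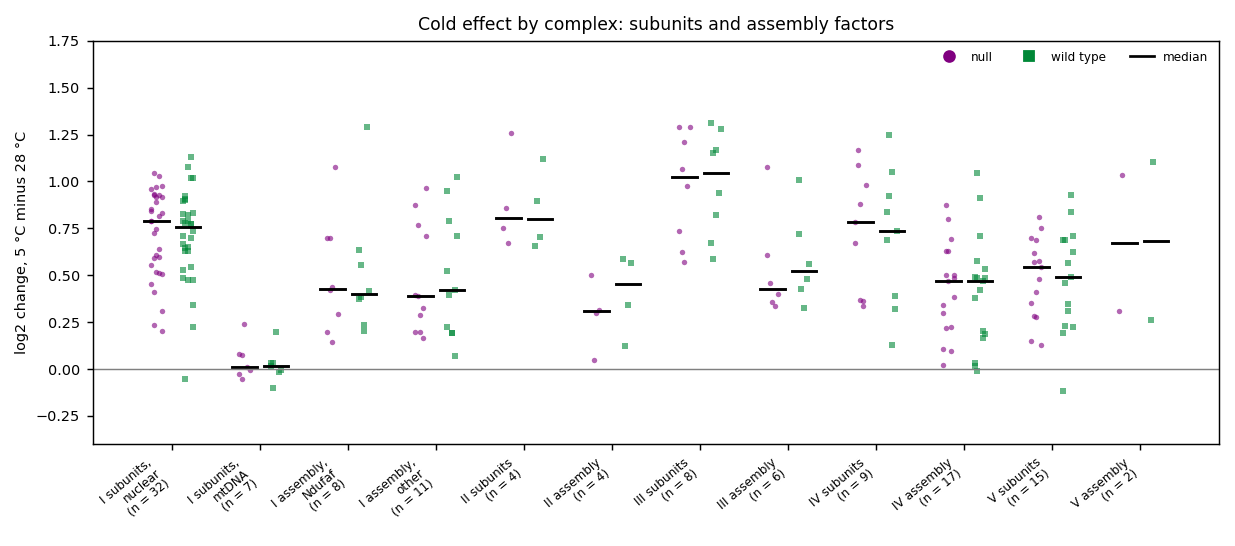
Log2 change between 5 °C and 28 °C for each gene (points, purple circles for null and green squares for wild-type mice) of the 5 complexes, split into subunits and assembly factors, with black bars at the medians. Nuclear complex I subunits have medians of 0.79 in null and 0.75 in wild-type mice and mitochondrially encoded ones 0.01 and 0.02, while Ndufaf genes have 0.43 and 0.40 and other complex I assembly factors 0.39 and 0.42.

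The genotype comparisons called none of the 42 genes. At 5 °C, null minus wild type, 0 passed (0.149% of all genes did), the median difference was −0.03 and single genes ran from −0.32 to 0.29, and 2 had an unadjusted p under 0.05, beside 6.65% of all genes. At 28 °C 0 passed (0.194% of all genes did), the median was −0.04, the range −0.26 to 0.20, and 1 had an unadjusted p under 0.05, beside 6.74% of all genes. For the difference of the cold effects 0 of the 42 passed, as did 0 of all genes (0%). The median difference was 0.03, the range −0.26 to 0.32, and 1 of the 42 had an unadjusted p under 0.05, beside 5.13% of all genes. The 95% interval of this difference lay within ±0.5 for 37 of the 42 genes, beside 10579 of all 22180 genes. It lay within ±1 for all 42, beside 20658 of all 22180. A bound of ±1 is wider than the median cold effects of 0.70 in null and 0.66 in wild-type mice. A p above the threshold does not show that the genotypes were alike, and these intervals give the sizes that remain possible.

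The smallest p in both genotype comparisons belonged to Ndufa6, a matrix-arm subunit. It gave 9.04, 8.82, 8.74, 8.93 and 8.88 in null mice at 5 °C, against 9.34, 9.19, 9.33, 9.02 and 9.13 in wild-type mice at 5 °C. It gave 8.06 to 8.41 (median 8.25) in null mice at 28 °C, against 8.42 to 8.60 (median 8.50) in wild-type mice at 28 °C. At 28 °C every null array lay below every wild-type array, and at 5 °C 1 null array lay above the lowest wild-type array. The difference was -0.32 (95% interval -0.49 to -0.15, adjusted p = 0.202) at 5 °C and -0.26 (95% interval -0.42 to -0.11, adjusted p = 0.338) at 28 °C, and neither passed. Over 32 alternative settings and left-out arrays the adjusted p at 5 °C ran from 0.0749 to 0.594. Ndufa6 lies on chromosome 15, as does Ppara, and how far sequence around the disrupted gene from the other strain remained after backcrossing was not tested. Its cold effect was 0.64 ± 0.08 in null and 0.70 ± 0.08 in wild-type mice, both called.

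Next in order at 5 °C were Ndufa4l2, at -0.22 (95% interval -0.40 to -0.03, adjusted p = 0.663), and Ndufs5, at 0.29 (95% interval -0.01 to 0.59, adjusted p = 0.763). At 28 °C they were Ndufaf6, at 0.20 (95% interval -0.02 to 0.43, adjusted p = 0.781), and Ndufa12, at -0.19 (95% interval -0.41 to 0.03, adjusted p = 0.785). Ndufa12, of the matrix arm, averaged 8.51 ± 0.13 in null and 8.66 ± 0.12 in wild-type mice at 5 °C, and 7.70 ± 0.25 in null and 7.89 ± 0.17 in wild-type mice at 28 °C (SD). For the difference of the cold effects the smallest p was that of Ndufb7, of the distal membrane arm, which rose by 0.51 ± 0.08 in null and 0.78 ± 0.08 in wild-type mice. It gave 7.30, 7.20, 7.06, 7.09 and 7.09 in null and 7.32, 7.27, 7.37, 7.42 and 7.13 in wild-type mice at 5 °C, and 6.44 to 6.76 (median 6.63) in null and 6.37 to 6.78 (median 6.47) in wild-type mice at 28 °C, so that the genotypes overlapped at both temperatures. The difference was -0.26 (95% interval -0.51 to -0.02, adjusted p = 0.963). Ndufa3, of the membrane arm, followed at -0.22 (95% interval -0.45 to 0.02, adjusted p = 0.965), with means of 11.00 ± 0.14 in null and 11.12 ± 0.11 in wild-type mice at 5 °C, and 10.58 ± 0.05 in null and 10.50 ± 0.15 in wild-type mice at 28 °C. None of these passed, in any of the alternative settings.

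**Figure D5:**
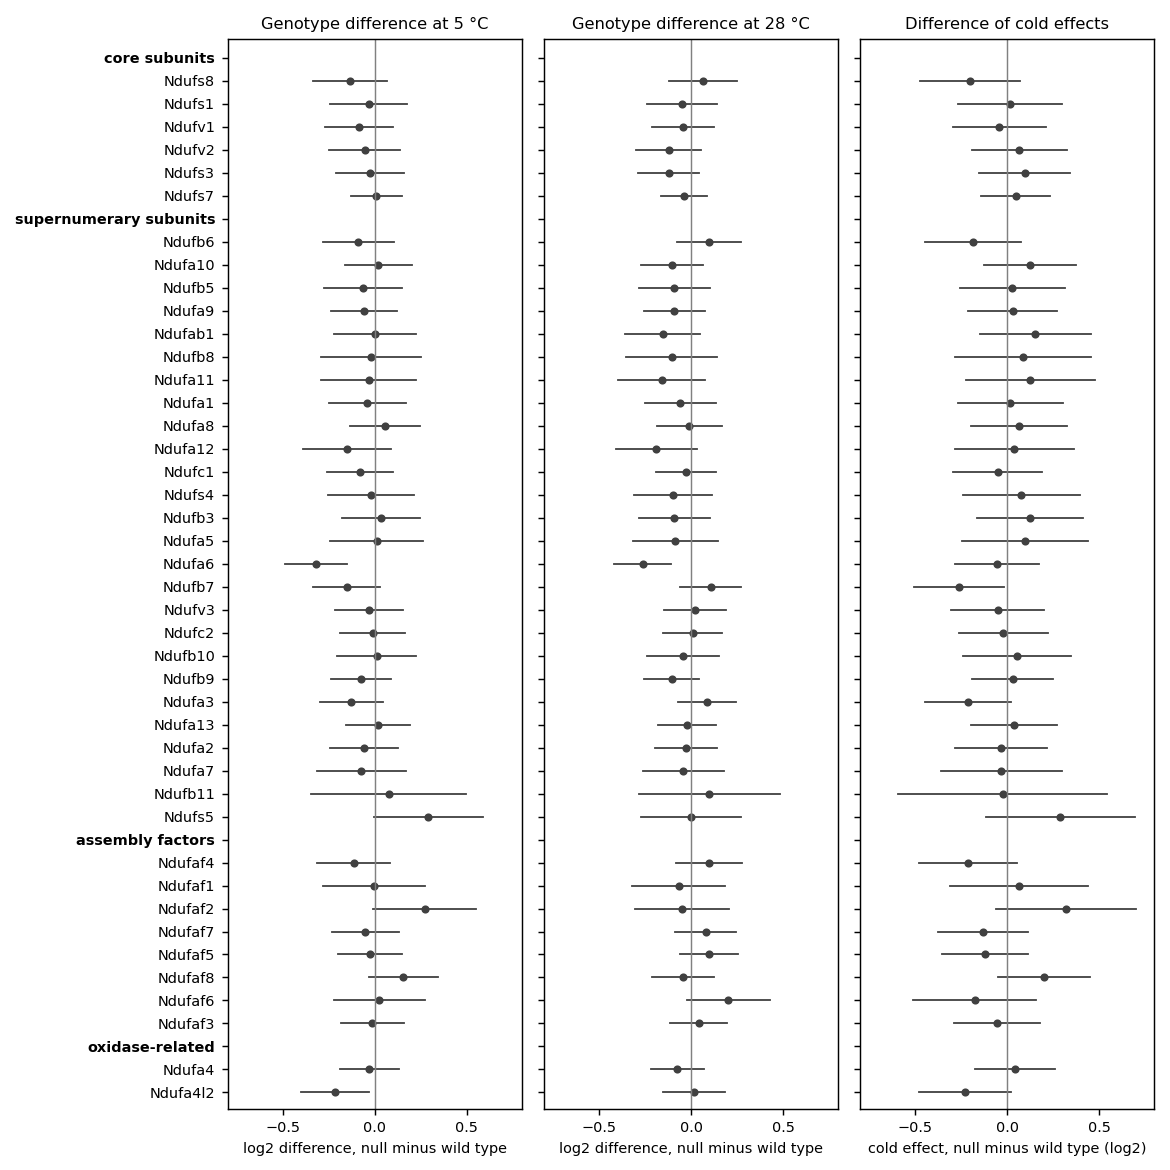
Difference between null and wild-type mice in log2 units for each of the 42 genes at 5 °C, at 28 °C, and for the cold effect itself, with 95% intervals from the fit over 22 arrays. Ndufa6 lies below 0 at both temperatures, at −0.32 at 5 °C and −0.26 at 28 °C, and no gene passed the adjusted threshold in any panel.

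Markers of other cells in the depot moved with temperature or varied between mice. White-adipocyte markers were high in every group, with means of 11.0 to 11.2 over 7 genes, and epithelial markers stood at 3.74 to 3.87 over 7 genes, between the lower quartile and the median of the arrays. Of the white-adipocyte markers, Adipoq and Lep were called lower at 5 °C in null mice, at −0.27 and −0.83, and Adipoq was in wild-type mice, at −0.36. Lep changed by −0.66 in wild-type mice and was not called there, and 0 of the 7 were called in the difference of the cold effects. Of 8 endothelial markers, Tek was called lower in both genotypes, at −0.34 in null and −0.43 in wild-type mice. Kdr was called higher in wild-type mice, at 0.24, and the medians over the 8 were −0.14 and −0.02. Of all genes, 6.33% were called lower in null and 8.3% in wild-type mice, and 6.88% and 8.35% higher. A call of 1 gene among 7 or 8 is near those shares. All 9 markers of fibroblasts and matrix and 11 of 12 macrophage markers were called lower at 5 °C in both genotypes, with median log2 changes of −0.48 and −0.61 in null and −0.70 and −0.65 in wild-type mice, and the 12 macrophage markers averaged 7.72 to 7.91 in null mice at 5 °C, against 8.24 to 8.55 at 28 °C. Of 9 thermogenic markers, 8 were called higher in null and 9 in wild-type mice. Skeletal muscle markers, 16 genes of a tissue rich in complex I, had 0 called in either cold comparison but averaged from 6.38 to 9.54 in null mice at 5 °C, 6.24 to 10.20 in wild-type mice at 5 °C, 5.75 to 8.50 in null mice at 28 °C and 7.18 to 9.43 in wild-type mice at 28 °C. The null mouse with the highest muscle mean at 5 °C (9.54) also had the highest subunit mean of that group (8.73). The same held for the null mouse with the highest muscle mean at 28 °C (8.50, subunit mean 7.99). The wild-type mouse with the highest muscle mean at 5 °C (10.20) had a subunit mean of 8.58, the median of its group. At 28 °C the wild-type mouse with the highest muscle mean (9.43) had a subunit mean of 7.94, beside a highest of 8.02 in its group. Between the genotypes the muscle markers averaged 7.36 ± 1.29 in null mice at 5 °C, against 7.78 ± 1.59 in wild-type mice at 5 °C, and 6.89 ± 1.02 in null mice at 28 °C, against 8.40 ± 0.83 in wild-type mice at 28 °C (SD). At 28 °C 0 of the 16 were called (0.194% of all genes were), and the median difference was −1.68. An unadjusted p under 0.05 was found for 12 of the 16, beside 6.74% of all genes. With the muscle mean as a covariate, 0 of the 42 Nduf genes were called in either genotype comparison. Median differences were −0.02 at 5 °C and −0.01 at 28 °C, and Ndufa6 had −0.32 and −0.26. In the cold comparisons with that covariate 36 genes were called higher in null and 38 in wild-type mice, with medians of 0.69 and 0.67. B and T cell markers averaged from 4.63 to 7.41 in null mice at 5 °C, 4.96 to 6.40 in wild-type mice at 5 °C, 5.07 to 8.41 in null mice at 28 °C and 4.97 to 7.97 in wild-type mice at 28 °C. Of these 11 B and T cell markers, 0 were called in either cold comparison. The part of the shifts in macrophage, fibroblast and thermogenic markers in the changes of complex I genes was not tested. Nor was that of the spread of lymphocyte markers between mice.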

How the data were processed

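Inguinal white fat of 22 mice was measured on Affymetrix whole-transcript arrays with 100 ng of input RNA (integrity number over 8), per the labels' protocols. The authors deposited log2 values from RMA, per the submitters' processing notes, with no version stated. The sources used here do not name the array's genome build. Of 41345 probe sets, 23521 had 1 gene symbol, and the brightest stood for each of 22180 genes, with no low-signal filter and the values as deposited. Read depth does not apply to arrays.

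Genes were tested with limma (version 3.58.1, R 4.3.3), fitting all 4 groups together (18 residual and 3.35 prior degrees of freedom), with Benjamini-Hochberg adjustment over all genes and a threshold of 0.05. Errors of changes are standard errors. The fit was also run on simulated arrays with independent noise for each gene and known effects added in null mice at 5 °C. That simulation does not cover genes that vary together or differences in cell content between mice. Every gene with the Nduf prefix could be named, and values per group were given for all Ndufaf genes, the core subunits, the 5 subunits with the largest and the 5 with the smallest average cold effect, exceptions to the calls, the smallest p of each genotype comparison, Ndufa4 and Ndufa4l2. Of other lists the largest, the median or the smallest gene was named, and Acad9 and Ecsit as partners of Ndufaf1 were added after their values were seen. Of the white-adipocyte and endothelial markers, the genes named were those called in a cold comparison. The genes and lists were chosen with earlier results of these data known. Motifs were searched as exact letters on both strands. Alternatives were 2 scalings, filters on dim genes, the mean of probe sets, trend and robust eBayes, array weights, the groups compared alone, replicate number as a block, a muscle covariate and leaving out each array. A fit over all probe sets and the comparison matched for brightness were chosen after seeing the data. Other software was pandas 2.3.3, matplotlib 3.10.9 and the R package data.table (version 1.17.8).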

Additional observations from a re-analysis of the deposited data

Results flagged for a closer look

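Among 180 sets of 5 or 6 arrays of 1 gene or class mean in 1 group, 12 (6.67%) had 1 array whose gap to its nearest neighbour took up an unusual share of the group's range, where chance gives about 1 in 20. In null mice at 5 °C these were Ndufb8 at 7.96 and Ndufv2 at 9.86, both high in replicate 1, the array with the highest muscle markers of its group, and Ndufaf2 at 4.48, low in replicate 3. In wild-type mice at 5 °C Ndufb10 was low in replicate 3 at 7.17. In null mice at 28 °C Ndufa4 was high in replicate 5 at 10.5, Ndufa8 was low in replicate 4 at 9.15, and Ndufs3 was low in replicate 2 at 5.76. In wild-type mice at 28 °C Ndufa2, Ndufb5 and Ndufs8 were high in replicate 4 at 8.57, 7.24 and 9.11, Ndufs5 was high in replicate 2 at 5.42, and Ndufa1 was low in replicate 3 at 7.94. Wild-type replicate 4 also had the highest subunit mean of the 28 °C mice (8.02). Leaving out the array concerned ended no cold call of these genes in the genotype concerned, and Ndufs5 was not called in either genotype.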

How the results depend on the processing

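Over 10 alternative settings, genes called higher by cold numbered 36 or 37 in null and 35 to 39 in wild-type mice. Without 1 array they numbered 35 to 37 in null and 34 to 38 in wild-type mice, and the median changes were 0.67 to 0.75 and 0.63 to 0.70. The count called lower in null mice, 1, was 0 with array medians subtracted, 0 with the groups compared alone, and 0 to 1 without 1 array. Subunit minus assembly factor medians, 0.36 in both genotypes, were 0.30 in null mice with subunits matched for brightness, 0.29 in wild-type mice after quantile normalization, and 0.32 to 0.39 in null and 0.28 to 0.39 in wild-type mice without 1 array. Genotype comparisons and the difference of cold effects called 0 members under every setting, and 1 had an unadjusted p under 0.05 in the difference. Subtracting array medians raised the share of all cold calls that were higher to 64.6% in null mice, against 52% as deposited, and to 68.3% in wild-type mice, against 50.1%. The labels do not say what a replicate number marks. Deviations of same-numbered mice correlated above 0.1 in 6 of 31 pairs (median −0.04, highest 0.35). Mice with different numbers were not compared in this way, so whether replicate numbers pair the mice was not tested. The replicate block gave 37 genes called higher in null and 36 in wild-type mice. Ndufa7, Ndufaf2, Ndufaf8 and Ndufa4l2 crossed the threshold under 1 or more settings and without single arrays, Ndufaf3 under settings only, and Ndufaf5 and Ndufaf6 without single arrays only, and the cause was not tested. The number of arrays and, for Ndufs5, Ndufb11, Ndufaf2 and Ndufaf6, low signal limit these results.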
